A study of Homo sapiens with 28 samples.

Results

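H1299 cells exposed to 3 µM azacitidine for 48 hours were compared with H1299 cells exposed to the vehicle. The comparison rests on 4 of the 28 arrays of the series, 2 labelled H1299 AZA 3 uM and 2 labelled H1299 vehicle control, which were chosen by those labels. H1299 is an established line of human non-small cell lung cancer, and the vehicle was DMSO. The other 24 arrays hold H1299 cells exposed to azacitidine at 0.3 or 1 µM or to decitabine (DAC) at 0.3, 1 or 3 µM, and the lung adenocarcinoma line A549 under the same conditions, with 2 arrays in each group. All cells were seeded the day before treatment, and fresh drug was added to the medium every 24 hours. The question was how gene expression answers to a hypomethylating cytidine analog at the highest dose tested. The labels do not say that the 2 arrays of a group came from separate cultures, so the p-values measure the spread between these arrays, which may be technical.

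Azacitidine is a ribonucleoside analog of cytidine, and decitabine is its counterpart with deoxyribose in place of ribose. Azacitidine is phosphorylated by uridine-cytidine kinase and enters RNA, and a part of it is reduced by ribonucleotide reductase and enters DNA, where it traps DNA methyltransferase 1 and leaves newly made DNA less methylated. Decitabine is phosphorylated by deoxycytidine kinase and enters DNA alone. The integrated stress response, which fills much of what follows, starts when a kinase phosphorylates the initiation factor eIF2. Bulk protein synthesis then falls while the transcription factor ATF4 is made, and ATF4 raises genes for amino acid synthesis, amino acid uptake and tRNA charging.

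The values were MAS5 signals, the brightness of a probe set on a one-colour Affymetrix array, scaled so that the trimmed mean of each of the 28 arrays lay between 500.1 and 500.2. The array medians lay between 92.7 and 123. The 2 arrays of a group correlated at 0.989 to 0.994 over the 8024 genes tested, on the log2 scale given next. A log2 change is given throughout on the scale log2(signal + 32), which understates the change of dim genes. Each test is limma's moderated test on all 28 arrays with Benjamini-Hochberg adjustment over 8024 genes, a gene was called at an adjusted p under 0.05, and an SE is that of the fitted change. Each of 16 measured leukocyte, endothelial and fibroblast markers was below the array median on all 4 arrays. A list of 11 measured alveolar markers and genes high in A549 cells summed to 291 and 224 on the vehicle arrays and to 323 and 261 on the azacitidine arrays. On the A549 vehicle arrays it summed to 35655 and 40859. The ratio of 5′ to 3′ signal of the GAPDH control, a sign of RNA integrity, was 1.02 and 1.06 with vehicle and 0.826 and 0.849 with 3 µM azacitidine, and 0.826 was the lowest of the 28 arrays. The same ratio of the actin control was 0.218 and 0.165 with vehicle and 0.159 and 0.161 with 3 µM azacitidine. The part of these ratios in the results below was not tested.

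Promoters of 6 genes are shown because they carry short sequence motifs that are known from the stress response and cell cycle genes described below. Each line gives the 250 bases before the annotated start site (RefSeq, GRCh38.p14), read 5′ to 3′ along the gene. In the first 3, capitals mark TGATGNAA or its reverse complement, the C/EBP-ATF response element bound by ATF4 with a C/EBP partner. ASNS makes asparagine, CHAC1 degrades glutathione and GOT1 interconverts aspartate and glutamate.
ASNS, chr7:97872409-97872658, minus strand: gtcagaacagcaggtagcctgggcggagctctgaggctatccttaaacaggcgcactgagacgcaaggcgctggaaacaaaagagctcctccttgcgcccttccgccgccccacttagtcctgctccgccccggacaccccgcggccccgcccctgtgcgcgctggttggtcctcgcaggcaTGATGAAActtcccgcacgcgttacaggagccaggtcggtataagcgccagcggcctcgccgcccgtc
CHAC1, chr15:40953221-40953470, plus strand: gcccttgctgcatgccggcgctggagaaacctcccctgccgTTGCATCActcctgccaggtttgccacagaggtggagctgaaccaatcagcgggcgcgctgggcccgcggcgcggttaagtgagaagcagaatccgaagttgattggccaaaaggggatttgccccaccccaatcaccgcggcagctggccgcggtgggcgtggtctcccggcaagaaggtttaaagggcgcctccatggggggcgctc
GOT1, chr10:99430625-99430874, minus strand: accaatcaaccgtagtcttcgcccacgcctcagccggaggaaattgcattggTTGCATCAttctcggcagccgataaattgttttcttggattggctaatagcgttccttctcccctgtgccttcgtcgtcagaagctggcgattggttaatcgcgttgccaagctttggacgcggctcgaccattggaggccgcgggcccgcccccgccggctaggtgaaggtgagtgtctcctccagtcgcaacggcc
In the next 3, capitals mark TTTGAA, the core of the cell cycle homology region, and CCAAT, or their reverse complements. CDC20 activates the anaphase-promoting complex, CCNB2 is a mitotic cyclin and PLK1 is a mitotic kinase.
CDC20, chr1:43358731-43358980, plus strand: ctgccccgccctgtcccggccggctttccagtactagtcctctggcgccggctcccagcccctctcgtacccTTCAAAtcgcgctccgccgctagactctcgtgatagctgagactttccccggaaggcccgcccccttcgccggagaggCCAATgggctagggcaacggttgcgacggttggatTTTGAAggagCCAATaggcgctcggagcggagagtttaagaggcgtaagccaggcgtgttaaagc
CCNB2, chr15:59104896-59105145, plus strand: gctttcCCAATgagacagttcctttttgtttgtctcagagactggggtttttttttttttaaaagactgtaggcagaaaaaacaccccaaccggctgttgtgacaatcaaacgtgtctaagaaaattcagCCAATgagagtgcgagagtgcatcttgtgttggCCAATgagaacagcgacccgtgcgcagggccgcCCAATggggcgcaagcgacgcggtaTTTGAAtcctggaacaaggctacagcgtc
PLK1, chr16:23678639-23678888, plus strand: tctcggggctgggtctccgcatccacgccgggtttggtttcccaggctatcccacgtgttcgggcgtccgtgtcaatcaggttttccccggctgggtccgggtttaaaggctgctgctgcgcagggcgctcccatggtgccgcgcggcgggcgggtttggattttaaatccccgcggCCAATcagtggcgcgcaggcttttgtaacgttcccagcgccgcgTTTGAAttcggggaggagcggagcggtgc
CHAC1, CDC20, CCNB2 and PLK1 were chosen for these promoters after their values were seen. The motifs were searched on both strands in windows of 300 bases around annotated starts, where a gene can have several windows, and the 2 cell cycle motifs do not overlap in letters. TGATGNAA lay in 12% of 25 windows of integrated stress response regulators, 15.8% of 19 windows of amino acid synthesis genes, 21.7% of 23 windows of amino acid transporters and 27.3% of 22 windows of tRNA synthetases. It lay in 3.62% of all 35116 windows and in 2.03% of the 10022 windows of tested genes. The 17 genes of these 4 groups that held it were all called higher. With or without the motif, 66.7% to 71.4% of the tested genes in each group were called higher, beside 32.3% of all genes tested. TTTGAA lay in 57.7% and CCAAT in 70.5% of 78 windows of G2/M genes, against 15.2% and 34.6% of all windows. The sterol regulatory element TCACNCCA, also searched, lay in 9.52% of 21 windows of cholesterol synthesis genes, against 3.95% of all windows. It was held by 2 of these genes, of which 1 was called lower and the other was not called. A match is a run of letters, not a shown binding site.

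With 3 µM azacitidine, 53.9% of the 8024 genes tested were called, 32.3% higher and 21.6% lower than with vehicle. This made 2592 genes higher and 1733 lower. Of these, 513 rose and 329 fell by more than 1 on the log2 scale. The median log2 change over all genes tested was 0.08. In 4319 of the 4325 called genes the 2 azacitidine arrays did not overlap the 2 vehicle arrays, as was also so in 77% of all genes tested. Brightness moved with direction: among the 803 genes of the highest mean signal, 46.3% were called lower and 15.6% higher, with a median log2 change of -0.19.

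**Figure D1:**
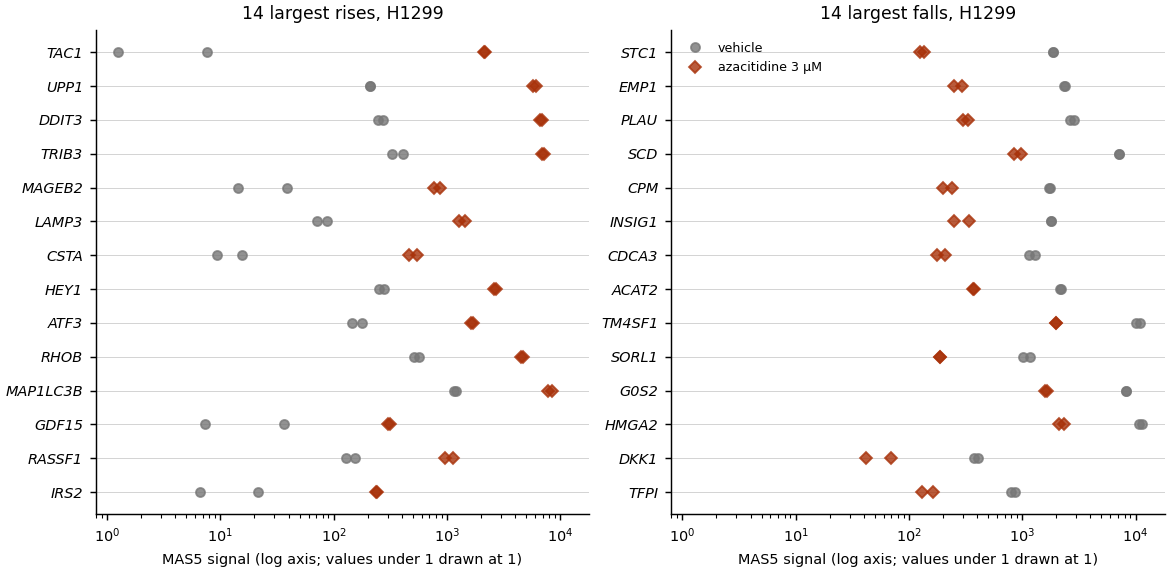
MAS5 signal (log axis) of the 14 genes with the largest rises and the 14 with the largest falls between vehicle (circles) and 3 µM azacitidine (diamonds) in H1299 cells, 1 point per array. Genes were eligible only if called and if the pairs of points of the 2 groups stood apart, so their separation is not a result. TAC1 and UPP1 stand at the top of the left panel and STC1 at the top of the right panel.

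The largest rise was that of TAC1, the precursor of the neuropeptide substance P. Its signal was 1.25 and 7.61 on the vehicle arrays, below the lower quartile of those arrays, and 2157 and 2129 with azacitidine (log2 change 5.91, SE 0.21, adjusted p = 3.3e-15). UPP1, uridine phosphorylase, which cleaves uridine to uracil, came next with 210 and 210 on the vehicle arrays and 5748 and 6057 on the azacitidine arrays (log2 change 4.62, SE 0.14, adjusted p = 3.4e-16). The groups lay far apart in both genes. HEY1, a repressor downstream of Notch, was 280 and 250 with vehicle and 2725 and 2603 with azacitidine (log2 change 3.18). RHOB, a small GTPase, was 568 and 507 with vehicle and 4663 and 4517 with azacitidine (log2 change 3.02). RASSF1, a tumour suppressor gene whose promoter is often methylated in lung cancer, was 129 and 156 with vehicle and 1129 and 966 with azacitidine (log2 change 2.63, SE 0.26). No azacitidine array overlapped a vehicle array in these genes, which was a condition for entering the 14 largest rises. The protease inhibitor CSTA (3.58), the lysosomal membrane protein LAMP3 (3.65) and the insulin receptor substrate IRS2 (2.57, and 0.96 in its other kept probe set) belonged to the same 14, with vehicle signals of CSTA of 15.5 and 9.27 that lie below the lower quartile.

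STC1, a secreted glycoprotein hormone, fell furthest. Its signal was 1864 and 1860 with vehicle and 135 and 126 with azacitidine, a log2 change of -3.54. PLAU, the urokinase plasminogen activator, fell from 2838 and 2638 to 336 and 301 (log2 change -2.98), and the membrane protein EMP1 fell from 2403 and 2336 to 293 and 251 (-2.98). HMGA2, a chromatin protein that is a target of RAS signalling in tumours, fell from 10800 and 11440 to 2350 and 2126 (-2.30), so a bright gene of the vehicle cells lost most of its signal. The tetraspanin relative TM4SF1 fell from 10150 and 11060 to 1974 and 1992 (-2.40). G0S2, an inhibitor of triglyceride lipase, fell from 8161 and 8271 to 1603 and 1662 (-2.31). The carboxypeptidase CPM (-2.82), the sorting receptor SORL1 (-2.36) and the coagulation inhibitor TFPI (-2.27) were also among the 14 largest falls. The other kept probe sets were lower too, at -1.77 and -4.16 for STC1, -1.04 for SORL1, -1.08 to -1.79 for TFPI and -1.31 to -2.93 for TM4SF1.

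**Figure D2:**
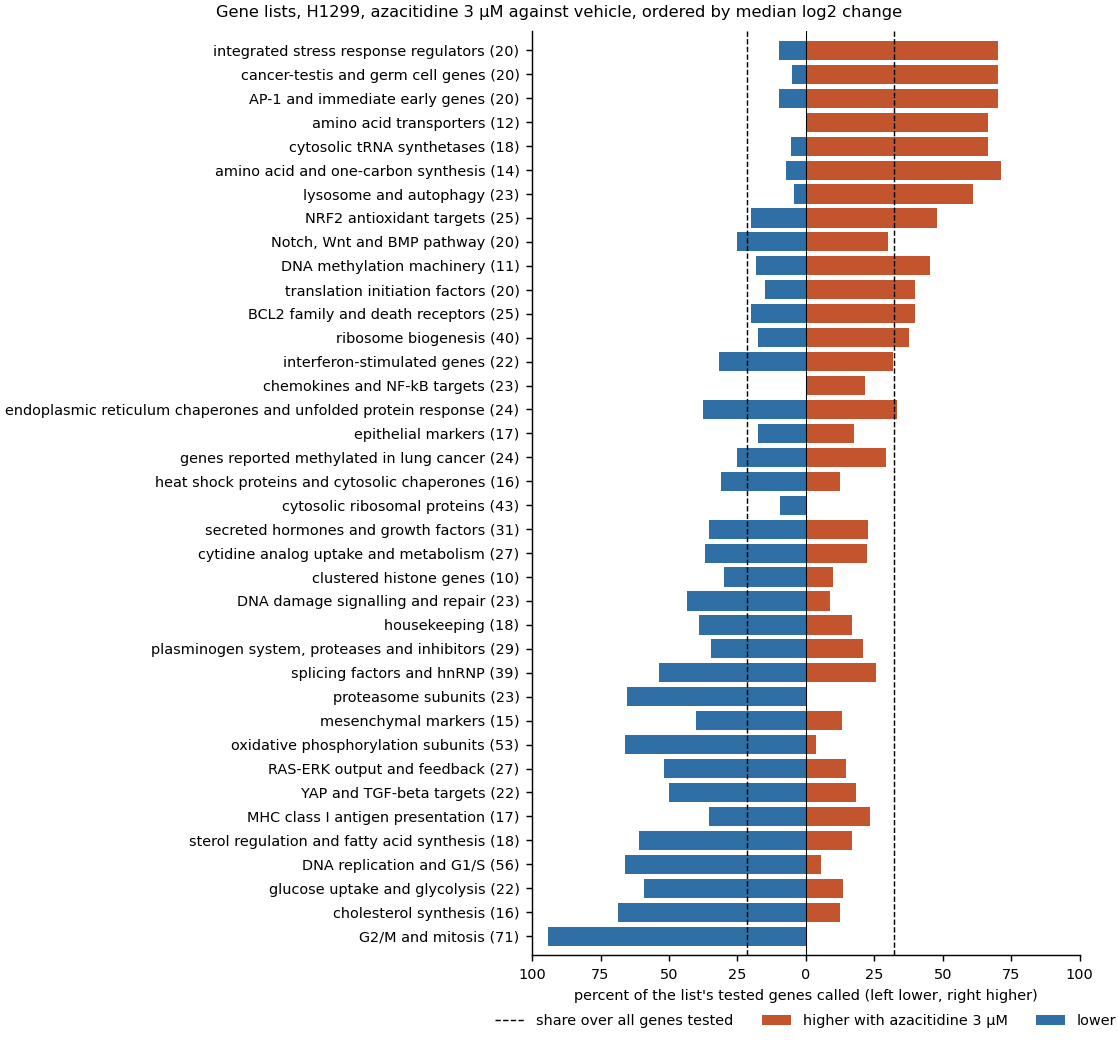
Percent of each list's tested genes that were called higher (right) or lower (left) with 3 µM azacitidine against vehicle in H1299 cells, ordered by the list's median log2 change, with the number of tested genes in brackets. The dashed lines mark 32.3% higher and 21.6% lower over all 8024 genes, and the order runs from the integrated stress response regulators at the top to the G2/M genes at the bottom.

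Regulators of the integrated stress response were mostly higher. Of 24 listed genes 20 were tested, and 14 were called higher and 2 lower, with a median log2 change of 1.32. ATF4, the factor at the centre of the response, was 3435 and 3805 with vehicle and 8891 and 9836 with azacitidine (log2 change 1.36, SE 0.13, adjusted p = 1.8e-08). DDIT3, the transcription factor CHOP that ATF4 induces, was 271 and 247 with vehicle and 6940 and 6646 with azacitidine (4.55, SE 0.15, adjusted p = 2e-15). TRIB3, a pseudokinase that restrains ATF4 and CHOP, was 407 and 326 with vehicle and 6957 and 7152 with azacitidine (4.16, SE 0.08). In all 3 genes every azacitidine array was above every vehicle array. For DDIT3 and TRIB3 this was a condition for entering the 14 largest rises, and the groups did not overlap in 77% of all genes tested. The partner factor ATF3 rose by 3.14, the cytokine GDF15 by 2.71 and the eIF2 phosphatase subunit PPP1R15A, which ends the response, by 2.39. The eIF2 kinase EIF2AK2, which senses double-stranded RNA, fell by 0.63, while its other kept probe set was not called (0.18). GDF15 started from dim vehicle signals of 36.4 and 7.24.

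In 3 groups that hold known ATF4 targets, most tested genes were called higher. Among amino acid and one-carbon synthesis enzymes, 10 of 14 tested were called higher and 1 lower, with a median of 0.53. GOT1 was 571 and 633 with vehicle and 3680 and 3632 with azacitidine (log2 change 2.54). ASNS was 3716 and 4075 with vehicle and 11910 and 11860 with azacitidine (1.60, SE 0.07, adjusted p = 8.5e-14). The promoters of both genes are shown above. CTH, which makes cysteine, rose by 1.90 and PSAT1, of serine synthesis, by 0.93, and the folate enzyme MTHFD1 fell by 1.24. Of 12 tested amino acid transporters 8 were called higher and 0 lower (median 0.59), and with no filter 8 of 18 were higher and 1 lower (median 0.30). SLC3A2, the heavy chain that carries several transporters to the membrane, was 791 and 673 with vehicle and 3916 and 4297 with azacitidine (2.44). The neutral amino acid transporter SLC1A4 rose by 2.10 and the cystine importer SLC7A11 by 1.62. Of 18 tested cytosolic tRNA synthetases 12 were called higher and 1 lower (median 0.56), with WARS1, for tryptophan, at 903 and 1025 and then 3395 and 3436 (1.79) and CARS1, for cysteine, rising by 1.56. CHAC1, whose promoter is shown above, was 241 and 169 with vehicle and 637 and 683 with azacitidine (1.56).

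Genes of the unfolded protein response split. Of 24 tested endoplasmic reticulum genes 8 were called higher and 9 lower, with a median of -0.05. These shares were 33.3% and 37.5%, beside 32.3% and 21.6% over all genes. HSPA5, the chaperone BiP, was 3889 and 4246 with vehicle and 12270 and 12900 with azacitidine (log2 change 1.62), and XBP1, a transcription factor of this response, was 464 and 509 and then 2125 and 1897 (1.98). The chaperone HYOU1 rose by 1.51 and HERPUD1, of protein degradation at the reticulum, by 1.30. The disulphide isomerases went the other way: PDIA3 was 1674 and 1814 with vehicle and 902 and 894 with azacitidine (-0.93), PDIA6 fell by 0.80 and P4HB by 0.76, and the chaperone HSP90B1 fell by 1.07. Genes of lysosomes and autophagy, which degrade cell contents, were higher in 14 and lower in 1 of 23 tested (median 0.46). MAP1LC3B, which coats autophagosomes, was 1162 and 1191 with vehicle and 7823 and 8480 with azacitidine (2.76), and the cargo receptor SQSTM1 rose by 1.65. Proteasome subunits were called lower in 15 and higher in 0 of 23 (median -0.27).

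The G2/M and mitosis genes fell almost as a whole. Of 73 listed genes 71 were tested, 67 were called lower and 0 higher, and the median log2 change was -1.01. CCNB1, cyclin B1, which drives entry into mitosis, was 5517 and 5735 with vehicle and 1489 and 1399 with azacitidine (log2 change -1.94, SE 0.07, adjusted p = 3.3e-15). CDCA3, which triggers degradation of the mitotic inhibitor WEE1, was 1146 and 1296 with vehicle and 175 and 210 with azacitidine (-2.48). KIF20A, a kinesin of cytokinesis, was 1022 and 1099 with vehicle and 187 and 274 with azacitidine (-2.08). The securin PTTG1 fell by 1.83 and the nuclear lamin LMNB1 by 2.04. The 3 genes whose promoters are shown above fell as well, CDC20 from 3462 and 3868 to 1206 and 1231 (-1.56), CCNB2 by 1.21 and PLK1 by 1.35. TTTGAA lay near the start of 41 of the 60 G2/M genes that had a promoter window. Of these 41 genes 40 were called lower, beside 94.4% of all 71 tested genes of the list. In bulk samples, fewer cells in a cycle phase and less RNA per cell cannot be told apart.

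Genes of DNA replication and the G1/S step were lower in 37 and higher in 3 of 56 tested (median -0.52). The transcription factor E2F8 was 904 and 810 with vehicle and 250 and 196 with azacitidine (log2 change -1.81). RRM2, the ribonucleotide reductase subunit, was 5881 and 5928 with vehicle and 2485 and 2470 with azacitidine (-1.24), and the thymidylate synthase TYMS fell by 1.21. Among 6 tested cyclin-dependent kinase inhibitors 2 were called higher and 4 lower. CDKN1A, p21, was 452 and 422 with vehicle and 1064 and 1163 with azacitidine (1.29), CDKN1C rose by 1.05, and CDKN3 was 2017 and 1961 and then 448 and 454 (-2.06). DNA damage and repair genes were lower in 10 and higher in 2 of 23, and H2AX, the histone variant phosphorylated at DNA breaks, fell by 1.30.

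Genes of the BCL2 family and the death receptors, which set the threshold for apoptosis, were higher in 10 and lower in 5 of 25 tested (median 0.12), shares of 40% and 20% that lie near the 32.3% and 21.6% over all genes. The death receptor TNFRSF10B, a known target of CHOP, was 680 and 651 with vehicle and 3436 and 3406 with azacitidine (log2 change 2.31), and its other kept probe sets changed by 0.51 and 0.62. The death receptor FAS fell by 1.17. The initiator PMAIP1 rose by 1.29, the inhibitor XIAP by 1.21 and the inflammatory caspase CASP4 by 1.57.

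Sterol and fatty acid synthesis genes were mostly lower. Of 16 tested cholesterol synthesis genes 11 were called lower and 2 higher (median -0.81), and of 18 genes of sterol regulation and fatty acid synthesis 11 were lower and 3 higher (median -0.51). SCD, the desaturase that makes oleate, was 7139 and 7130 with vehicle and 982 and 841 with azacitidine (log2 change -2.93). INSIG1, which holds the regulator SREBP in the endoplasmic reticulum and is itself an SREBP target, was 1812 and 1808 with vehicle and 340 and 248 with azacitidine (-2.51). ACAT2, a cytosolic thiolase, was 2182 and 2176 with vehicle and 375 and 368 with azacitidine (-2.46). The 2 groups did not overlap in any of these, which was a condition for being named among the largest falls. The groups did not overlap in 77% of all genes tested. EBP fell by 1.71, LSS by 1.58 and MSMO1 by 1.29, all of the sterol branch, and FASN, fatty acid synthase, fell by 1.35 and the regulator SREBF1 by 1.12.

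DNMT1, the methyltransferase that azacitidine traps as protein, was lower as mRNA. Its signal was 2577 and 2792 with vehicle and 1554 and 1468 with azacitidine (log2 change -0.82, SE 0.07, adjusted p = 3e-09). The de novo methyltransferases were not called: DNMT3A was 190 and 213 with vehicle and 224 and 230 with azacitidine (0.15, adjusted p = 0.4), and DNMT3B was 259 and 253 and then 271 and 281 (0.10, adjusted p = 0.56). The demethylation gene TDG rose by 0.65 (0.44 and not called in its other kept probe set) and the methyl-DNA reader MBD1 by 0.77. Cancer-testis and germ cell genes, which are kept silent by promoter methylation in most somatic cells, were called higher in 14 and lower in 1 of the 20 tested of 49 listed (median 0.72). A gene silent with vehicle could pass the filter on low signals only through arrays where it was high, so this count says little of the list. With no filter 35 were tested, 15 were higher and 1 lower, and the median was 0.14. MAGEB2 was 38.7 and 14.2 with vehicle and 774 and 861 with azacitidine (3.89), and MAGEC2 was 56.9 and 47.9 and then 214 and 220 (1.56). MAGE genes have near-identical copies, so the gene behind a probe set is uncertain. TKTL1, a transketolase relative, was 7.46 and 5.46 with vehicle and 95.7 and 89.7 with azacitidine (1.70), but its other kept probe set had a log2 change of 0.01 (adjusted p = 0.973). DAZL, an RNA-binding protein of germ cells, was 3.2 and 3.85 and then 91.2 and 67 (1.64). The vehicle signals of TKTL1 and DAZL lie below the lower quartile of their arrays.

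Of 27 tested genes that take up, activate or clear cytidine analogs 6 were called higher and 10 lower (median -0.17), with 3 higher when the second azacitidine array was left out. UPP1 was the largest rise and DPYD, which degrades uracil, the largest fall (log2 change -1.42). DCK, the kinase that activates decitabine, had a log2 change of -0.08 and was not called, as was CDA, cytidine deaminase, with -0.17. The nucleoside transporter SLC29A1 fell by 0.49. UCK1 and UCK2, the kinases of azacitidine, were not analysed here.

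Immediate early genes were higher in 14 and lower in 2 of 20 tested (median 0.62). EGR1 was 365 and 341 with vehicle and 1437 and 1464 with azacitidine (log2 change 1.95), and JUN rose by 1.52 and MAFF by 1.77. The list of RAS-ERK output and feedback genes leaned down, with 14 lower and 4 higher of 27 (median -0.33). The feedback inhibitor SPRY2 was 1521 and 1504 with vehicle and 620 and 632 with azacitidine (-1.23), while the phosphatases DUSP1 and DUSP6 rose by 1.45 and 1.29. YAP and TGF-beta targets were lower in 11 and higher in 4 of 22 (median -0.36), with ID1, an inhibitor of differentiation factors, at 2858 and 3316 and then 790 and 837 (-1.88) and the SMAD repressor SKIL rising by 2.23 (1.22 in its other kept probe set). In the Notch, Wnt and BMP list 6 were higher and 5 lower of 20, near the shares over all genes. HES1 rose by 1.39 (0.43 and not called in its other kept probe set) and JAG1 by 1.22, and the Wnt receptor FZD2 fell by 1.91 and the Wnt inhibitor DKK1 by 2.29.

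Energy metabolism genes leaned down. Of 22 tested genes of glucose uptake and glycolysis 13 were lower and 3 higher (median -0.57), and LDHA, lactate dehydrogenase, was 8663 and 10240 with vehicle and 4183 and 4217 with azacitidine (log2 change -1.16). PFKM, phosphofructokinase, fell by 1.17 and the pyruvate kinase PKM by 1.13. Of 53 oxidative phosphorylation subunits 35 were lower and 2 higher (median -0.31), and after quantile normalization 29 were lower and 4 higher (median -0.19). The ATP synthase subunit ATP5MC1 fell by 1.10. These lists hold bright genes, and the median over the 803 brightest genes was -0.19. Housekeeping genes were lower in 7 and higher in 3 of 18 (median -0.18, and -0.07 after quantile normalization), and HPRT1, of purine salvage, fell by 0.85 while POLR2A, the large subunit of RNA polymerase II, rose by 0.71.

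The lower doses were measured against the same vehicle arrays, so the values stand side by side and their likeness is not a test. At 0.3 µM 2.46% of the genes tested were called higher and 3.22% lower, and at 1 µM 19.9% were higher and 15.4% lower. Beyond a log2 change of 1 there were 29 genes at 0.3 µM, 249 at 1 µM and 842 at 3 µM. The median of the integrated stress response regulators was -0.09 at 0.3 µM, 1.20 at 1 µM and 1.32 at 3 µM. The median of the G2/M genes was 0.10 at 0.3 µM, -0.41 at 1 µM and -1.01 at 3 µM, and that of cholesterol synthesis -0.19, -0.70 and -0.81. By these medians, the stress response list had most of its change at 1 µM, and the G2/M list had the larger share of it between 1 and 3 µM.

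**Figure D3:**
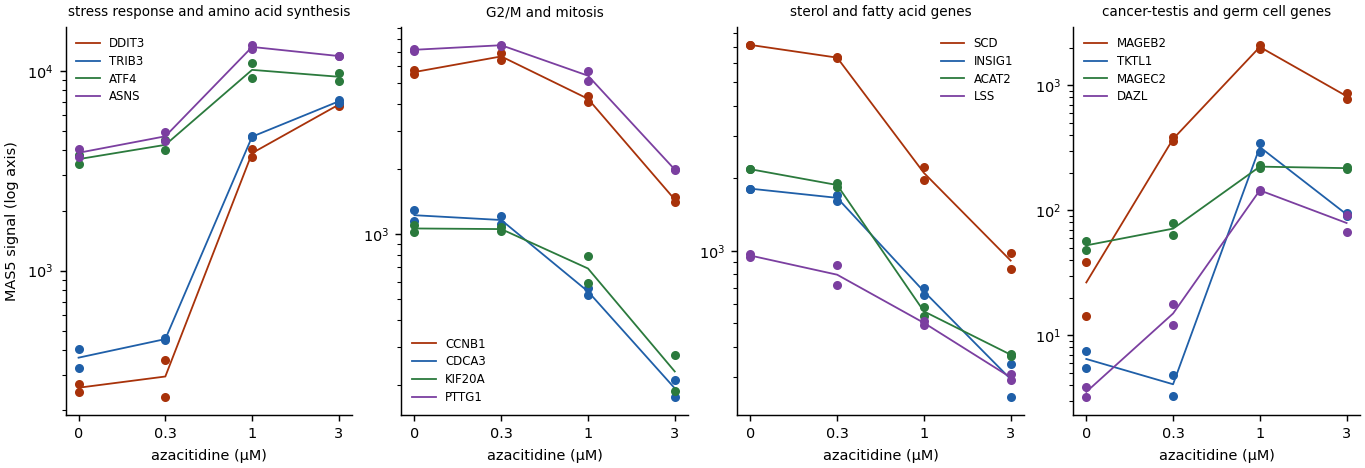
MAS5 signal (log axis) of 16 genes in H1299 cells against the azacitidine dose in µM, with 1 point per array and lines through the means of the 2 arrays. DDIT3, TRIB3, ATF4 and ASNS were high from 1 µM on, CCNB1, CDCA3, KIF20A and PTTG1 fell most between 1 and 3 µM, and MAGEB2, TKTL1 and DAZL were highest at 1 µM.

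The step from 1 to 3 µM was tested directly, and it called 21.9% of the genes higher and 15.8% lower, 1754 and 1271 genes. With each array centred on its median in place of the deposited scaling, the split was 1171 higher and 1488 lower. The G2/M genes were lower at 3 than at 1 µM in 56 and higher in 0 of 71. CCNB1 was 4105 and 4350 at 1 µM and fell further by 1.53 (SE 0.07). Of 20 integrated stress response regulators 8 were higher and 2 lower at 3 than at 1 µM, with a median step of 0.12. Among those not called, ATF4 was 9253 and 11030 at 1 µM, and its step was -0.11 (95% interval -0.38 to 0.16, adjusted p = 0.54). ASNS was 12880 and 13530 at 1 µM with a step of -0.15 (95% interval -0.30 to -0.01, adjusted p = 0.094). DDIT3 went on rising, from 3712 and 4052 at 1 µM, by 0.80. MAGEB2 ran the other way: it was 388 and 355 at 0.3 µM and 2102 and 1944 at 1 µM, and fell by 1.27 from there to 3 µM (adjusted p = 8e-06). TKTL1 was 293 and 347 at 1 µM and fell by 1.49, and DAZL was 143 and 145 and fell by 0.68, a step not called with a pseudocount of 1 or without the second array at 3 µM (-0.52). Of the 20 cancer-testis and germ cell genes that passed the filter 8 were lower and 2 higher at 3 than at 1 µM. With no filter 8 of 35 were lower and 1 higher. The 43 tested cytosolic ribosomal protein genes were lower at 3 than at 1 µM in 40, with a median step of -0.36, but in 3 with a median of -0.01 after quantile normalization and in 8 without the second array at 1 µM. Against vehicle at 3 µM their median was -0.11, and 0.02 after quantile normalization. Among the largest steps, TAC1 went from 598 and 524 at 1 µM to a level 1.88 higher, a step that was 1.93 but not called with a pseudocount of 1 (adjusted p = 0.0969), and the small GTPase RND3 rose by 1.70, while the galectin LGALS1 fell by 1.82.

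Decitabine at the same dose and time was compared directly, 1 pair of compounds at 1 matched dose. Of the genes tested 33% were higher and 23.3% lower with 3 µM azacitidine than with 3 µM decitabine, 2644 and 1872 genes. The stress response list was higher with azacitidine in 16 and lower in 3 of 20, and the G2/M list was lower in 66 and higher in 0 of 71. DDIT3 was 694 and 691 with decitabine, 3.23 lower on the log2 scale than with azacitidine. TRIB3 was 491 and 469 with decitabine, a difference of 3.79, and ASNS was 1424 and 1314, a difference of 3.09, and lay below its vehicle arrays. CCNB1 was 5704 and 5437 with decitabine beside 5517 and 5735 with vehicle, and the difference between the compounds was -1.92.

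**Figure D4:**
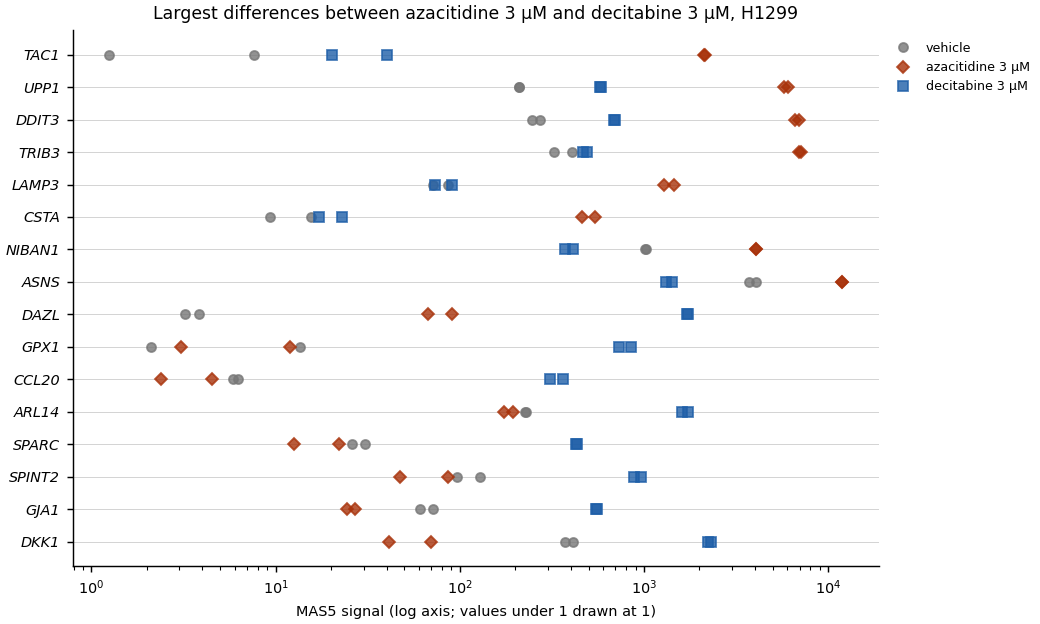
MAS5 signal (log axis) of the 8 genes furthest above and the 8 furthest below with 3 µM azacitidine against 3 µM decitabine in H1299 cells, with vehicle for reference and 1 point per array. In TAC1, TRIB3, UPP1 and DDIT3 the azacitidine points stand far to the right of decitabine, and in DKK1 and DAZL the decitabine points do.

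Genes that decitabine raised more stood on the other side. DKK1, a secreted Wnt inhibitor, was 410 and 372 with vehicle, 69.9 and 41.4 with azacitidine and 2240 and 2308 with decitabine, a difference of -4.74 (adjusted p = 1e-17). DAZL was 1733 and 1710 with decitabine, a difference of -3.99, and MAGEB2 was 2701 and 2800, a difference of -1.71. Of the 20 cancer-testis and germ cell genes that passed the filter 7 were higher and 8 lower with azacitidine than with decitabine (median -0.05). With no filter 6 of 35 were higher and 12 lower, with the same median. GPX1, a glutathione peroxidase, was 849 and 729 with decitabine and 12 and 3.08 with azacitidine, below the lower quartile, a difference of -4.38. The cyclin-dependent kinase inhibitor CDKN1A was 922 and 890 with decitabine, and azacitidine was higher by 0.29 (adjusted p = 0.015). This difference was not called after quantile normalization (0.18), with median centring (0.22), or without the second array of either compound (0.22 and 0.26). Of the 3508 genes not called between the compounds, 3329 had a 95% interval that stayed within a log2 difference of 1. DUSP1 was one of these, with a difference of -0.05 and an interval of -0.22 to 0.12, and SMAD7, an inhibitor of TGF-beta signalling, was another, with 0.02 and -0.20 to 0.25.

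The response was also set against that of A549 cells to the same dose, as a test of the difference of the 2 changes. It was more positive in H1299 cells in 17.5% of genes and more negative in 13.9%, 1402 and 1117 genes. The G2/M genes fell further in H1299 cells in 58 and less in 0 of 71, with a median change of -0.27 in A549 cells. CCNB1 changed by -1.94 in H1299 and -0.38 in A549 cells, a difference of -1.56. The stress response list was higher in both lines, with medians of 1.32 in H1299 and 1.12 in A549 cells, and its difference was positive in 8 and negative in 6 of 20 genes. DDIT3 was 195 and 186 in A549 vehicle cells and 788 and 1088 with azacitidine, a change of 2.10 against 4.55. HSPA5 was 5959 and 6400 with vehicle and 6507 and 6216 with azacitidine in A549 cells, a change of 0.04 against 1.62 in H1299 cells (difference 1.58). Genes of lysosomes and autophagy were more positive in H1299 cells in 15 and more negative in 1 of 23. The GAPDH ratio of 5′ to 3′ signal was 1.01 and 0.986 with vehicle and 0.943 and 0.902 with azacitidine in A549 cells. The actin ratio was 0.294 and 0.325 with vehicle and 0.204 and 0.187 with azacitidine in A549 cells. The part of these ratios in the differences between the lines was not tested.

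**Figure D5:**
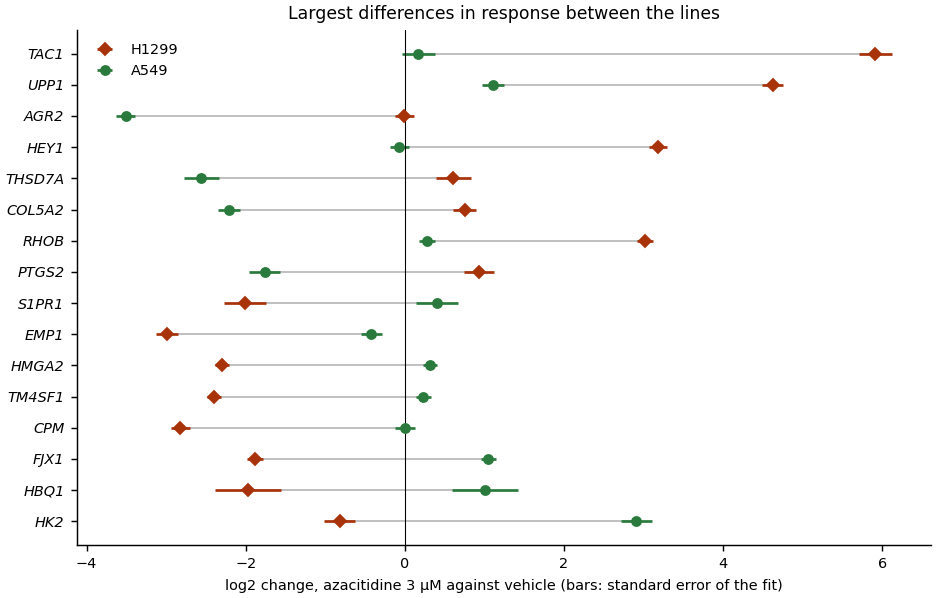
Log2 change between 3 µM azacitidine and vehicle in H1299 (diamonds) and A549 cells (circles) for the 16 genes with the largest differences between the lines, with the standard error of the fit as bars. TAC1, UPP1, HEY1 and RHOB rose more in H1299 cells, AGR2 and COL5A2 fell in A549 cells, and HK2 rose in A549 cells, 2.91 against -0.82 in H1299 cells. The signal of AGR2 in H1299 cells was below the lower array quartile, so a fall could not be seen there.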

How the data were processed

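The authors deposited a table of MAS5 signal intensities, 1 value per probe set and array, from Affymetrix human expression arrays hybridised with amplified, biotin-labelled RNA, per the labels' protocols and the submitters' processing notes. The MAS5 version and scaling target are not given in the sources used here. MAS5 brings each array to a common mean, so a change of total RNA per cell is not seen.

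From these intensities log2(signal + 32) was taken. A probe set was kept if at least 2 arrays had it above their own median (13297 of 22277), and each gene took its singly named kept probe set of highest mean, which gave 8024 genes. Names came from the platform annotation, and 19052 of 19064 singly named probe sets matched RefSeq by Entrez identifier. A linear model with 1 mean per group was fitted over all 28 arrays (R 4.3.3, limma 3.58.1, empirical Bayes with trend), and p-values were adjusted by Benjamini-Hochberg over all genes, called at 0.05. Of the called genes with several kept probe sets, 85 of 1537 had one called the other way.

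Named genes were the 14 largest rises and falls, the 5 largest called members of each list and direction, fixed key genes, and the 8 largest in each direction of the other comparisons. The 14 rises and 14 falls were taken from called genes whose azacitidine and vehicle arrays did not overlap. The comparison, the gene lists and these rules were chosen with earlier results of these data known. Alternatives to the scaling, pseudocount, filter, probe set rule, arrays fitted and variance trend were tried, and the fit was tested on simulated data. Each array of the directly tested comparisons was left out in turn, and the other arrays of the fit were not. Motif matches are exact strings in RefSeq's promoter windows (GRCh38.p14), and no protein table was used. One gene and its target list are not reported here.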

Additional observations from a re-analysis of the deposited data

Results flagged for a closer look

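The response to 3 µM azacitidine was tested for a difference between H1299 and A549 cells, and the 8 largest differences in each direction are given here as values. All p-values are limma's with Benjamini-Hochberg adjustment over 8024 genes, and what produces each difference was not tested. TAC1, the precursor of substance P, changed by 5.91 in H1299 and 0.17 in A549 cells, a difference of 5.73 (adjusted p = 8.9e-12). UPP1, uridine phosphorylase, differed by 3.51, the Notch effector HEY1 by 3.25 and the small GTPase RHOB by 2.74, and each of these rose in H1299 cells. In the other 4 genes of this direction A549 cells fell: AGR2, a protein of secretory epithelia, changed by -0.01 in H1299 and -3.51 in A549 cells, a difference of 3.5. With vehicle AGR2 was 6.63 and 3.13 in H1299 cells, below the lower quartile, and 2490 and 1930 in A549 cells. A fall of AGR2 could therefore not be seen in H1299 cells. THSD7A differed by 3.17, the collagen gene COL5A2 by 2.96 and PTGS2, a cyclooxygenase, by 2.7. With vehicle COL5A2 was 39.3 and 44.3 in H1299 cells and 6240 and 6000 in A549 cells.

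In the opposite direction 5 differences came mainly from falls in H1299 cells. CPM, a carboxypeptidase, changed by -2.82 in H1299 and 0 in A549 cells, a difference of -2.82. TM4SF1 differed by -2.63, HMGA2 by -2.62, EMP1 by -2.56 and the lipid receptor S1PR1 by -2.41. The remaining 3 genes fell in H1299 and rose in A549 cells. HK2, hexokinase, which starts glycolysis, changed by -0.82 in H1299 and 2.91 in A549 cells, a difference of -3.73 (adjusted p = 2.5e-09). FJX1 changed by -1.88 and 1.05, a difference of -2.93, and the globin gene HBQ1 by -1.97 and 1.01, a difference of -2.98 (adjusted p = 0.00059).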

How the results depend on the processing

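With other scaling, pseudocount, filter, probe set rule, arrays fitted or variance trend, the number of genes called between 3 µM azacitidine and vehicle ranged from 3223 (a filter at the 75th percentile, which tests fewer genes) to 4494 (the 4 arrays fitted alone), against 4325. Leaving out 1 array gave 3679 to 3857. For the step from 1 to 3 µM, 3025 genes became 2455 to 3120 under the other settings and 2010 to 2446 with 1 array left out, the lowest being 2010 without the first array at 3 µM and 2012 without the second at 1 µM. Leaving out 1 array gave 3786 to 3911 of 4516 between the compounds and 2001 to 2285 of 2519 between the lines. The replicate numbers of the labels did not pair the arrays (correlation of deviations -0.01 between vehicle and 3 µM azacitidine, and over 0.1 in 16 of 91 pairs of groups), and a replicate block gave 4352, 3048, 4551 and 2554 genes in the 4 comparisons. The difference between the lines in LAMP3 reversed to -1.08 with a pseudocount of 1, since its signal in A549 vehicle cells was 1.28 and 1.57. Counts of list members called against the main direction, of 5 or fewer, changed most often. A signal near the lower array quartile, 18 to 28.3, has no reliable fold.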

Other observations

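Targets of the oxidant sensor NRF2 were called higher in 12 and lower in 5 of 25 tested genes with 3 µM azacitidine against vehicle (median log2 change 0.22). These shares were 48% and 20%, beside 32.3% and 21.6% over all genes, so the lower share was near that of all genes. HMOX1, heme oxygenase, was 255 and 259 with vehicle and 1320 and 1372 with azacitidine (2.25), and OSGIN1 rose by 1.45 and the thioredoxin reductase TXNRD1 by 1.00. The pentose phosphate enzymes of the same list went down, PGD from 802 and 1030 to 303 and 364 (-1.37) and TKT by 1.01. SLC7A11, counted above among the transporters, belongs to this list too.

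Interferon-stimulated genes were split, with 7 higher and 7 lower of 22 (median 0.05), and 3 higher when the first azacitidine array was left out. With all arrays, 31.8% were called in each direction, beside 32.3% higher and 21.6% lower over all genes. The DNA sensor IFI16 was 73 and 45 with vehicle and 321 and 327 with azacitidine (1.99). The membrane proteins IFITM2 and IFITM3, near-identical copies whose probe sets are uncertain, fell by 1.57 and 1.52, and LGALS3BP fell by 1.33. Mesenchymal markers were lower in 6 and higher in 2 of 15, shares of 40% and 13.3% beside 21.6% and 32.3% over all genes. Epithelial markers were lower in 3 and higher in 3 of 17. FN1, fibronectin, was 175 and 161 and then 65.3 and 12.8 (-1.60). Among genes often methylated in lung cancer 7 were higher and 6 lower of 24, shares of 29.2% and 25% that lie near those over all genes. CAV1, caveolin, fell from 6675 and 7076 to 1889 and 1859 (-1.86). Splicing factors and hnRNP genes were lower in 21 and higher in 10 of 39 (median -0.26), 19 lower and 11 higher after quantile normalization (median -0.13), and 21 lower and 5 higher with median centring. HNRNPA2B1 fell by 1.18. Ribosome biogenesis genes were higher in 15 and lower in 7 of 40, shares of 37.5% and 17.5% beside 32.3% and 21.6% over all genes, with the polymerase I factor RRN3 rising by 1.33.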
